A study of Mus musculus with 6 samples.

Results

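The genes described here encode the proteins that license replication origins, unwind and copy DNA at the replication fork, and supply its deoxynucleotide building blocks (dNTPs). They are 51 named mouse genes, taken by symbol from a table of 14883 genes, and all 51 were found in it and passed the filter on low counts. RNA was sequenced from B16F10luc2 cells, a subline of the mouse melanoma line B16F10, after 24 h of cyclic stretch (3 samples) or of static culture (3 samples). All 6 samples were grown in the same medium on the same kind of plate with an elastic base. Stretched plates were elongated by 15% equally along both axes, 15 times per minute, with equal times of stretch and release. The cells are 1 established line and no sample carries another genotype or drug. The labels do not state that replicates were separate cultures, so each p-value reflects the variation among these 6 samples, part or all of which may be technical.

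A replication origin is licensed in G1 phase when the origin recognition complex (ORC), with Cdc6 and Cdt1, loads the ring of Mcm2 to Mcm7 onto DNA. In S phase Cdc45 and the GINS complex join this ring to form the active helicase, primase lays down RNA primers, polymerase alpha extends them, and polymerases delta and epsilon, held to DNA by the sliding clamp PCNA, copy the strands. Ribonucleotide reductase, thymidylate synthase and the nucleoside and nucleotide kinases make the dNTPs, and transcripts of many of these genes rise as cells enter S phase under E2F transcription factors.

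Total counts ran from 20494344 to 36351400 in the stretched libraries and from 19469286 to 30042222 in the static libraries. Replicates correlated across genes at 0.994 to 0.997 in log2 CPM (counts scaled to the same TMM library size). The marker sums that follow are an exception, with CPM taken from total counts without the TMM factors. All 7 melanocyte markers were in the table, and their summed level was 20300 to 20811 CPM in stretched libraries and 22234 to 23927 CPM in static libraries. Of the fibroblast markers 5 of 6 were in the table (Thy1 was not), at 16.2 to 17.7 CPM in sum in stretched libraries and 12.8 to 18.2 CPM in static libraries. Of the leukocyte markers 2 of 5 were in the table, without the defining Ptprc and Cd3e, at 1.56 to 1.93 CPM in stretched libraries and 1.86 to 2.26 CPM in static libraries. The melanocyte sum was lower in every stretched library, and its part in the results was not tested. Its genes did not all move one way. In the tests described below, Tyrp1, Dct and Pmel were called lower, Mitf higher (log2 fold change 0.37), and Sox10, Tyr and Mlana were not called.

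Stretched cells had higher mRNA levels of 39 of the 51 replication genes and a lower level of 1, E2f1. Calls are quasi-likelihood tests in edgeR with a Benjamini-Hochberg adjusted p below 0.05 over all genes. Of all 12377 genes tested, 24.9% were called higher and 25.9% lower (50.9% in either direction), so the replication genes were called higher in 76.5% of cases against a background of 24.9%. The gains were small: the median log2 fold change was 0.20 (1.15-fold), against 0.00 over all genes tested, and the range ran from -0.16 to 0.56. The estimate was above 0 for 49 of the 51 genes. In 39 genes every stretched library lay above every static library, which held for 29% of all genes. In 1 gene every stretched library lay below, against 29.4% of all genes, and the remaining 11 overlapped; groups did not overlap in 58.5% of all genes. The 11 genes that did not pass were Orc2, Orc3, Cdc6, Cdt1, Mcm5, Mcm7, Gins4, Pold2, Fen1, Rpa1 and Rpa2. In RNA from whole cultures, a larger share of cells in S phase and more mRNA per cell cannot be told apart. The fit was also repeated with an offset for the GC content and length of each gene's transcript (the GC-length offset), which called 36 of the genes higher and 0 lower, and calls that it changed are given beside the gene. Of all 12135 genes in that fit, 2783 were called higher and 3035 lower. Against a null of a 1.2-fold change, edgeR's glmTreat called 9 of the genes higher and 0 lower: Prim1, Dtymk, Gmnn, Tk1, Gins2, Dut, Pole2, Prim2 and Tipin. Over all 12377 genes it called 679 higher and 913 lower.

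**Figure D1:**
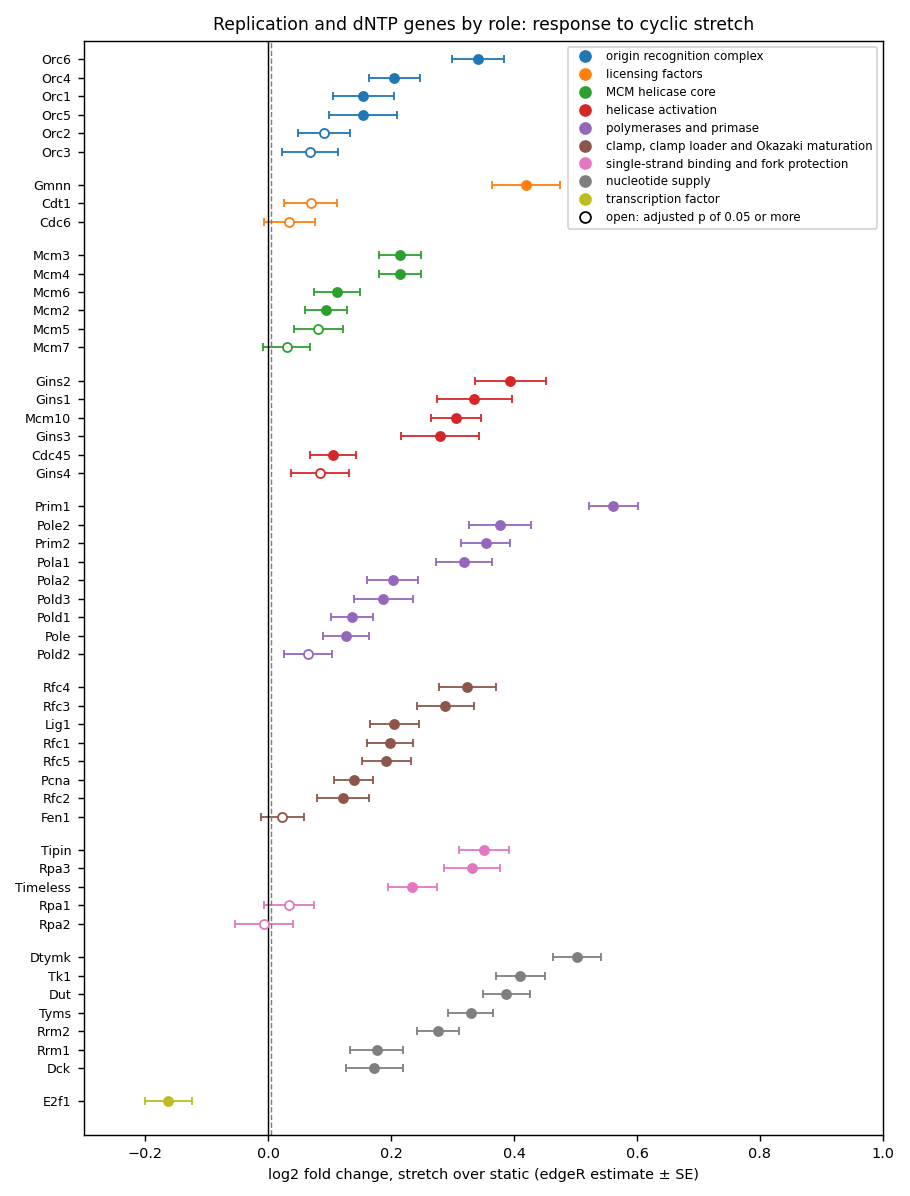
Log2 fold change of each of the 51 genes, stretch over static, grouped by role; bars are standard errors, filled points have an adjusted p under 0.05 and the dashed line is the median of all genes tested (0.00). All points but Rpa2 (-0.01) and E2f1 (-0.16) lie right of 0, with Prim1 (0.56) and Dtymk (0.50) farthest.

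By role, nucleotide supply had the highest median log2 fold change (0.33, 7 of 7 genes higher), followed by helicase activation (0.29, 5 of 6), single-strand binding and fork protection (0.23, 3 of 5), polymerases and primase (0.20, 8 of 9) and the clamp, clamp loader and Okazaki fragment enzymes (0.20, 7 of 8). The origin recognition complex (0.15, 4 of 6), the Mcm2 to Mcm7 core (0.10, 4 of 6) and the licensing factors (0.07, 1 of 3) had the lowest medians. The order depended on the measure. With the GC-length offset, the medians of the licensing factors and the Mcm2 to Mcm7 core were above those of single-strand binding and the origin recognition complex. In mean log2 CPM over genes, stretch minus static, the licensing factors (0.175) were above the origin recognition complex (0.169) and the Mcm2 to Mcm7 core (0.124). These values are descriptions of small groups, and the differences between roles were not tested.

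The start regions of these genes were read for letters bound by E2F, since many replication genes are known E2F targets. RefSeq start windows on GRCm38.p6, 250 bases before to 50 after each start, were found for 42 of the 51 genes; Gmnn, Mcm4, Gins1, Gins2, Gins4, Prim2, Pole, Rfc2 and Tipin had none. In 23 of the 42, every window held bases of the gene's own exons before the start (all 250 in E2f1). Starts outside these windows were not read, so a gene without the letters here may hold them elsewhere. Any of the letters TTTGGCGC, TTTCCCGC, TTTCGCGC and TTTGCCGC, on either strand and with overlapping matches counted separately, stood in a window of 15 of the 42 genes (35.7%), against 4.79% of the 9892 tested genes with a window. These 15 were Orc1, Orc3, Cdc6, Cdt1, Mcm3, Mcm5, Mcm6, Mcm7, Gins3, Pola1, Pold1, Pold3, Pole2, Rfc3 and Lig1. The letters were held by 10 of the 31 genes called higher and by 5 of the 10 that were not called. The median log2 fold change was 0.15 with the letters and 0.20 without. The cell cycle element TTTGAA stood in 6 of 42 (14.3%), against 14.2% of the tested genes, and CCAAT, the letters of the factor NF-Y, in 24 of 42 (57.1%), against 43.3%. A match describes the letters in the window and is not a measured binding site. The shares describe the genes chosen, and a link between the letters and stretch was not tested.

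Of the regions before the start, 4 are printed to show both kinds: Mcm6 (called higher) and Mcm5 (not called) hold matches, while Prim1 and Dtymk, which had the largest gains, hold none in their windows. Each is given 5′ to 3′ on the gene's own strand, from 250 bases before the start up to the first base inside the RefSeq gene or 1 of its GENCODE exons, whichever comes first, with E2F letters in capitals. The Mcm6 stretch is chr1:128359706-128359955 (minus strand), that of Mcm5 chr8:75109259-75109467 (plus strand), that of Prim1 chr10:128014965-128015167 (plus strand) and that of Dtymk chr1:93802069-93802184 (minus strand).
Mcm6: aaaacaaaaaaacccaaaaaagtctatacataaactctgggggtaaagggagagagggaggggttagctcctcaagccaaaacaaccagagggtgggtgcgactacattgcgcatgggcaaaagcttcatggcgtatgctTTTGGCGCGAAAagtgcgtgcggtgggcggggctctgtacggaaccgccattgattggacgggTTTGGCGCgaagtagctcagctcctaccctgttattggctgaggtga
Mcm5: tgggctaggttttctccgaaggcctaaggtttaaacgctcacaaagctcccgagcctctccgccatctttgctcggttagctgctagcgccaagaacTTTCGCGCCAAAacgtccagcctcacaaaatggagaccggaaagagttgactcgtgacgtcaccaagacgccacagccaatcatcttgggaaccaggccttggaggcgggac
Prim1: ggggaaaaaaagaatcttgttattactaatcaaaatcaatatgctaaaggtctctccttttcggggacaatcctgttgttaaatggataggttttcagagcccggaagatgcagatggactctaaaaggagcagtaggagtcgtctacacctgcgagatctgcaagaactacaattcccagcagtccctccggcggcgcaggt
Dtymk: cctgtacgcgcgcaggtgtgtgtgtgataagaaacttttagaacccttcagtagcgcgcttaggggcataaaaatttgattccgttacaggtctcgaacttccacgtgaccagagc

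In Mcm6 the matches began 110, 106 and 47 bases before the start on the gene's strand, and the first pair overlap. In Mcm5 they began 153 and 149 bases before the start, also as an overlapping pair.

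In the origin recognition complex, which marks origins and recruits the loader, 4 of 6 subunits rose. Orc6, the smallest subunit, had 49.1, 49.3 and 50.8 CPM in stretched libraries, against 39.4, 38.2 and 39.9 CPM in static libraries. The groups lay well apart, with a log2 change of 0.34 (standard error, SE, 0.043; adjusted p = 1.18e-05), or 1.27-fold. Orc4 had 50.9 ± 0.802 CPM in stretched cells and 44.2 ± 0.519 CPM in static cells (SD, n = 3 each, as for every mean below), with a log2 fold change of 0.21, which was 0.06 and not called with the GC-length offset (adjusted p = 0.276). Orc1, the largest subunit, averaged 30.3 ± 0.854 CPM under stretch and 27.2 ± 0.560 CPM in static culture (0.15, adjusted p = 0.0182). Its call was lost without stretch replicate 1 (adjusted p = 0.0808) or 2 (adjusted p = 0.0656) and in DESeq2. Orc5 averaged 24.3 ± 0.341 CPM under stretch and 21.8 ± 0.842 CPM in static culture (0.15, adjusted p = 0.0302), and lost its call without any 1 of the stretched libraries (adjusted p = 0.0624 to 0.0871), without static replicate 3 (adjusted p = 0.126), in DESeq2 and with the GC-length offset (0.02, adjusted p = 0.76). Orc2 and Orc3 did not pass, with log2 fold changes of 0.09 and 0.07; Orc2 passed without static replicate 2 (adjusted p = 0.00702). Orc6 made up 24.3 ± 0.233% of the ORC transcripts, per kb of coding transcript, in stretched cells and 21.4 ± 1.04% in static cells.

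Of the licensing factors, Gmnn alone was called. It encodes geminin, which binds Cdt1 and blocks renewed licensing after origins have fired. Gmnn had 33.3, 33.9 and 30.6 CPM in stretched libraries, against 24.2, 23.7 and 25.2 CPM in static libraries, with no overlap. The log2 fold change was 0.42 (SE 0.055, adjusted p = 1.79e-05), or 1.34-fold. Cdt1, the loader that geminin inhibits, had 137, 133 and 141 CPM in stretched libraries, against 135, 122 and 134 CPM in static libraries. These groups overlapped, and the log2 fold change of 0.07 did not pass (adjusted p = 0.195), though with the GC-length offset it was 0.17 and passed (adjusted p = 0.00135). Cdc6, the ATPase that acts with Cdt1, averaged 77.6 ± 3.58 CPM under stretch and 75.8 ± 1.53 CPM in static culture (0.03, adjusted p = 0.518). The ratio of Gmnn to Cdt1 CPM was 0.242, 0.255 and 0.217 in stretched libraries, against 0.180, 0.193 and 0.187 in static libraries.

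The 6 genes of the Mcm2 to Mcm7 ring, the core of the replicative helicase, include some of the most abundant of the set, and 4 of 6 were called higher, at log2 fold changes of 0.09 to 0.22. Mcm2 had 715, 719 and 736 CPM in stretched libraries, against 679.6, 695 and 659.8 CPM in static libraries, a log2 change of 0.09 (SE 0.034, adjusted p = 0.0325). Its call was lost without any 1 of the 3 stretched libraries (adjusted p = 0.0717 to 0.129), without static replicate 1 (adjusted p = 0.0928) and without static replicate 3 (adjusted p = 0.0722). Mcm3 averaged 369.7 ± 7.34 CPM under stretch and 318 ± 5.60 CPM in static culture, and Mcm4 averaged 220.3 ± 2.32 CPM under stretch and 189.98 ± 3.28 CPM in static culture. Both rose 1.16-fold (adjusted p = 1.05e-04 and 1.06e-04) and kept their calls with every library left out in turn. Mcm6 averaged 431 ± 7.21 CPM under stretch and 399 ± 17.8 CPM in static culture (0.11, adjusted p = 0.0236), and lost its call without stretch replicate 2 (adjusted p = 0.0758) or 3 (0.0962), or static replicate 1 (0.0607) or 3 (0.0771), and with the GC-length offset (0.09, adjusted p = 0.0797). Mcm5 (0.08) and Mcm7 (0.03) did not pass; Mcm5 passed without static replicate 2 (adjusted p = 0.00346), where its static level was 345 CPM against 316 CPM in both other static libraries. Within the ring, per kb of coding transcript, Mcm3 made up 17.9 ± 0.166% in stretched cells and 16.7 ± 0.296% in static cells, and Mcm7 made up 12.2 ± 0.274% in stretched cells and 12.9 ± 0.173% in static cells.

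Of the 6 genes that turn the loaded ring into an active helicase, 5 rose. Gins2, a subunit of the GINS complex, had 24.4, 23.6 and 25.3 CPM in stretched libraries, against 18.9, 18.9 and 17.9 CPM in static libraries. Its log2 fold change was 0.39 (SE 0.058, adjusted p = 5.01e-05), or 1.31-fold. Gins2 shares 2758 exonic bases with Gse1 on the other strand, which was also called higher (0.28), and the strand of the libraries is not stated, so reads of this pair cannot be told apart. Orc2 likewise shares 1150 exonic bases with Nif3l1 (called higher, 0.11), Rfc2 shares 952 with Lat2, Rfc5 499 with Wsb2, Orc4 446 with Acvr2a and Mcm7 321 with Ap4m1. Orc6 shares 171 with Vps35, which was not called and averaged 243 CPM over the 6 libraries. Gins1 averaged 22.9 ± 0.992 CPM under stretch and 18.3 ± 0.845 CPM in static culture (0.34), and Gins3 averaged 22.5 ± 0.193 CPM under stretch and 18.5 ± 1.37 CPM in static culture (0.28). Gins4 had overlapping groups at 45.5 ± 1.91 CPM under stretch and 42.7 ± 1.43 CPM in static culture (0.08, adjusted p = 0.153). Its share of the GINS transcripts per kb was thus 48.2 ± 1.61% in stretched cells and 52.2 ± 0.998% in static cells. Mcm10, which helps to start unwinding, averaged 96.7 ± 2.21 CPM under stretch and 78.3 ± 3.27 CPM in static culture (0.30, adjusted p = 2.04e-05). Cdc45, the helicase cofactor, moved least of the called genes in this role, with 70.7 ± 0.681 CPM under stretch and 65.8 ± 1.26 CPM in static culture (0.10, adjusted p = 0.0301). Its call was lost without any 1 of the stretched libraries (adjusted p = 0.0593 to 0.103), without static replicate 1 (0.0505) or 3 (0.0934), and in DESeq2.

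The largest gain of the set was in primase. Prim1 (Entrez Gene 19075; chromosome 10, 128015215 to 128030030 in GRCm38), the catalytic primase subunit that makes RNA primers, had 93.4, 98.8 and 95.4 CPM in stretched libraries, against 62.8, 65.2 and 66.7 CPM in static libraries. The groups were far apart compared with their spread, with a log2 change of 0.56 (SE 0.040, adjusted p = 3.64e-08), or 1.48-fold. Prim2, the large primase subunit, had 59.8, 59.4 and 61.9 CPM in stretched libraries, against 46.9, 47.9 and 46.9 CPM in static libraries (0.35, SE 0.040, adjusted p = 4.43e-06). The polymerase alpha subunits, which extend the primers, were higher as well: Pola1, the catalytic subunit, averaged 94.3 ± 0.750 CPM under stretch and 75.9 ± 5.15 CPM in static culture (0.32). Pola2, the accessory subunit, averaged 51.9 ± 0.715 CPM under stretch and 45.1 ± 0.787 CPM in static culture (0.20). Of the transcripts of this complex per kb, Prim1 made up 46.5 ± 0.826% in stretched cells and 41.9 ± 0.821% in static cells.

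Polymerase epsilon copies the leading strand. Its accessory subunit Pole2 had 37.1, 40.0 and 38.99 CPM in stretched libraries, against 30.5, 28.5 and 30.0 CPM in static libraries (0.38, SE 0.050, adjusted p = 2.15e-05). The catalytic subunit Pole averaged 93.7 ± 2.35 CPM under stretch and 85.9 ± 1.79 CPM in static culture (0.13, adjusted p = 0.0112), and lost its call without stretch replicate 2 (adjusted p = 0.0653) or static replicate 1 (adjusted p = 0.0648). Polymerase delta copies the lagging strand. Its catalytic subunit Pold1 averaged 158 ± 1.27 CPM under stretch and 144 ± 1.51 CPM in static culture (0.14), and Pold3 averaged 60.4 ± 1.92 CPM under stretch and 53.0 ± 3.12 CPM in static culture (0.19). Pold2 had overlapping groups (0.06, adjusted p = 0.186) and was at 0.17 with the GC-length offset (adjusted p = 0.00268).

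Pcna, the sliding clamp, had 413, 420.1 and 419 CPM in stretched libraries, against 380.3, 381 and 377 CPM in static libraries. The groups did not overlap, and the log2 fold change was 0.14 (SE 0.032, adjusted p = 0.00233). It was 0.07 and not called with the GC-length offset (adjusted p = 0.0933). All 5 subunits of replication factor C, the loader that places the clamp on DNA, were called higher. Rfc4 (0.32) and Rfc3 (0.29) moved most, and Rfc2 (0.12, adjusted p = 0.027) moved least. Rfc2 lost its call without stretch replicate 1 (adjusted p = 0.0574) or 3 (0.142), without static replicate 3 (0.0858), and in DESeq2. Rfc4 shares 194 exonic bases with Eif4a2 on the other strand, which was called higher as well (0.37). Lig1, the ligase that joins Okazaki fragments, averaged 259 ± 2.48 CPM under stretch and 225 ± 11.96 CPM in static culture (0.20, adjusted p = 5.96e-04). Fen1, the nuclease that trims their flaps, averaged 137 ± 2.93 CPM under stretch and 135 ± 1.495 CPM in static culture and did not pass (0.02, adjusted p = 0.616), and was at 0.09 with the GC-length offset (adjusted p = 0.0498).

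Replication protein A (RPA) coats single-stranded DNA. Its smallest subunit Rpa3 had 41.2, 40.0 and 41.1 CPM in stretched libraries, against 31.8, 32.1 and 33.2 CPM in static libraries (0.33, SE 0.046, adjusted p = 2.85e-05). With the GC-length offset its log2 fold change was 0.05 and the call was lost (adjusted p = 0.345). The larger subunits had overlapping groups: Rpa1 averaged 311 ± 8.03 CPM under stretch and 304 ± 15.6 CPM in static culture (0.03, adjusted p = 0.514), and Rpa2 averaged 63.7 ± 1.71 CPM under stretch and 64.1 ± 4.04 CPM in static culture (-0.01, adjusted p = 0.912). Timeless and Tipin form the complex that steadies the fork and signals its stalling, and both rose. Tipin had 76.2, 76.4 and 79.6 CPM in stretched libraries, against 58.5, 60.8 and 62.5 CPM in static libraries (0.35, SE 0.041, adjusted p = 5.26e-06). Timeless averaged 84.3 ± 1.202 CPM under stretch and 71.5 ± 3.02 CPM in static culture (0.23, adjusted p = 2.00e-04).

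All 7 genes of nucleotide supply rose, and they included several of the largest gains; with the GC-length offset 5 of 7 stayed called, without Rrm1 and Dck. Dtymk (Entrez Gene 21915; chromosome 1, 93792576 to 93802068 in GRCm38), the thymidylate kinase that turns dTMP into dTDP, had 82.1, 78.3 and 81.2 CPM in stretched libraries, against 56.5, 56.2 and 57.9 CPM in static libraries. Its log2 fold change was 0.50 (SE 0.039, adjusted p = 8.67e-08), or 1.42-fold. Tk1 (chromosome 11, 117815519 to 117826087), the thymidine kinase of the salvage route, had 164, 161 and 170.0 CPM in stretched libraries, against 121, 129.6 and 122 CPM in static libraries (0.41, SE 0.039, adjusted p = 7.93e-07). Dut, the dUTPase that keeps uracil out of DNA and yields dUMP, had 81.1, 78.8 and 77.8 CPM in stretched libraries, against 61.1, 61.1 and 59.9 CPM in static libraries (0.39, SE 0.038, adjusted p = 1.02e-06). Tyms, the thymidylate synthase that methylates dUMP, averaged 88.3 ± 1.62 CPM under stretch and 70.3 ± 0.652 CPM in static culture (0.33, adjusted p = 3.47e-06). These 4 enzymes act on the route to dTTP. Dtymk, Tk1 and Dut kept their calls under all 18 alternatives, and Tyms under all but the test against a 1.2-fold change.

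Ribonucleotide reductase makes deoxyribonucleotides from ribonucleotides. Its small subunit Rrm2, which cycles with S phase, averaged 577 ± 10.7 CPM under stretch and 476 ± 11.98 CPM in static culture (0.28, adjusted p = 1.12e-05). The large subunit Rrm1 had 485, 487 and 484 CPM in stretched libraries, against 423, 462 and 404 CPM in static libraries (0.18, SE 0.043, adjusted p = 0.00344). The stretched values of Rrm1 were nearly equal while the static values were spread. Dck, the deoxycytidine kinase of salvage, averaged 47.6 ± 1.82 CPM under stretch and 42.4 ± 1.54 CPM in static culture (0.17, adjusted p = 0.0062). With the GC-length offset Rrm1 was at 0.09 (adjusted p = 0.13) and Dck at 0.10 (adjusted p = 0.0937), and neither was called.

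**Figure D2:**
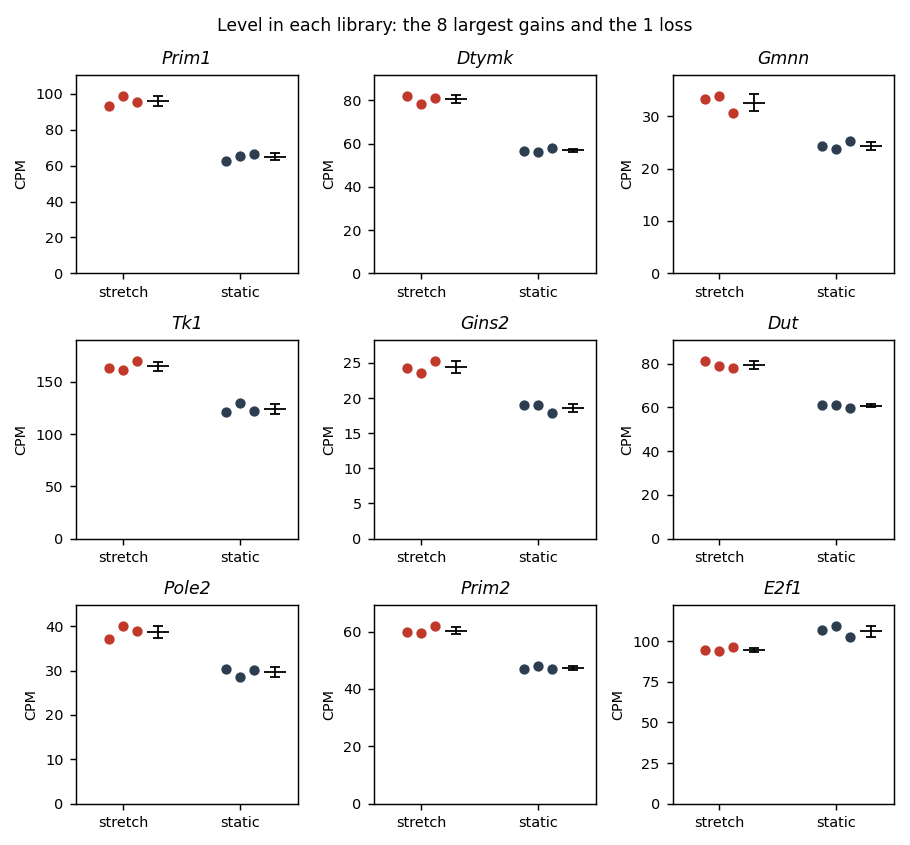
CPM in each library (points) of the 8 genes with the largest gains and of E2f1, with stretched libraries left of static libraries in each panel. Short bars with whiskers are the mean ± SD (n = 3). In every panel the groups are apart, with E2f1 the panel in which static libraries (102 to 109 CPM) lie above stretched libraries (93.7 to 96.2 CPM).

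E2f1 (Entrez Gene 13555; chromosome 2, 154559400 to 154569892), a transcription factor that drives genes of S phase entry, was the exception. It had 94.3, 93.7 and 96.2 CPM in stretched libraries, against 106.7, 109 and 102 CPM in static libraries. Every stretched library was lower, with a log2 change of -0.16 (SE 0.038, adjusted p = 0.00222). With the GC-length offset it was -0.05 and the call was lost (adjusted p = 0.294). Of the 16 other genes of E2F, their RB-family repressors and the DREAM complex, 8 were called higher and 1 lower, with a median log2 fold change of 0.11. Rbl1, which encodes the repressor p107, averaged 104 ± 3.43 CPM under stretch and 80.6 ± 0.747 CPM in static culture (1.29-fold). Tfdp1, the dimer partner of E2F proteins, rose 1.25-fold and E2f3 rose (log2 fold change 0.26), while Rbl2, which encodes p130, fell (log2 fold change -0.20). Rbl2 shares 693 exonic bases with Aktip on the other strand, which was not called. The count of 8 of 16 was 5, 4 and 5 without stretch replicate 1, 2 and 3. Over all genes, 2478 of 12411, 2542 of 12659 and 2689 of 12655 were called higher in those 3 fits.

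The median replicate spread of the 51 genes was below that of all genes tested, though the groups overlapped in 11 of them. The median coefficient of variation over the 51 genes was 2.28% in stretched libraries and 3.20% in static libraries, against 3.80% and 5.05% over all genes tested. This comparison was not matched for level. The lowest group mean among the 51 genes was 18.3 CPM (Gins1, static), whereas all genes tested include genes as low as Lyz2 (0.623 CPM under stretch). Among the static libraries, replicate 2 was the highest in 23 of the 51 genes (45.1%, against 38.3% of all genes) and replicate 3 the lowest in 28 (54.9%, against 35.4%). Among the stretched libraries, replicate 3 was the highest in 20 (39.2%, against 37.8%) and replicate 1 the lowest in 22 (43.1%, against 31.0%). Mki67, the proliferation marker Ki-67, had 834, 847 and 859 CPM in stretched libraries, against 299, 242 and 428 CPM in static libraries, so its highest static value was in replicate 3. The part of these library differences in the calls was not tested beyond leaving each library out.

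Per kb of the longest coding transcript, levels differed widely between genes. In stretched cells they were highest for Pcna (275 in stretched cells and 249.8 in static cells), Rrm2 (263 and 217), Mcm2 (215 and 201), Mcm3 (122 and 105), Rrm1 (121 and 108) and Tk1 (115 and 86.3). In both groups they were lowest for Gins2 (6.26 and 4.77), Gins3 (8.92 and 7.33) and Orc1 (10.0 and 9.03). The length of the transcript in use was not measured, so these levels depend on the annotated transcript.

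**Figure D3:**
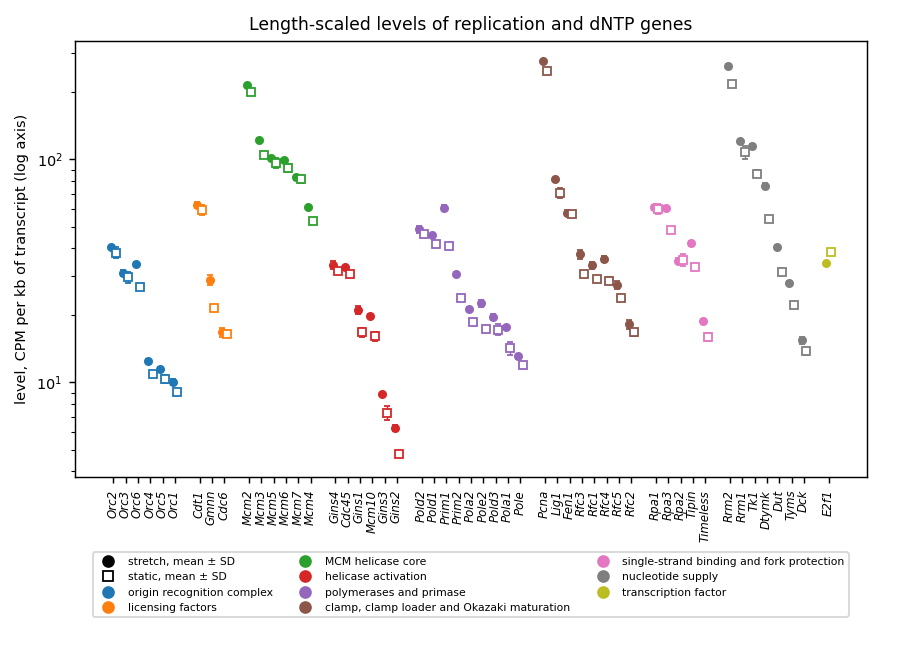
Level of each gene in CPM per kb of its longest coding transcript (log axis), with stretched and static group means. Levels run from Gins2 (6.26 in stretched cells and 4.77 in static cells) to Pcna (275 and 249.8), and the shift between groups is small beside the range between genes.

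Pairs of genes that act in 1 complex or on 1 route were also compared as ratios of CPM within each library. Of 7 such ratios, 6 had no overlap between groups, and each of the 6 had the smallest p an exact two-sided permutation test of 3 against 3 can give (0.1, adjusted over the 7 ratios 0.117). The ratio of Gmnn to Cdt1 was 1.27-fold higher under stretch, that of Rpa3 to Rpa1 1.23-fold (before the offset, which ended the call of Rpa3), that of Pole2 to Pole 1.196-fold, that of Prim1 to Pola1 1.19-fold, that of Dtymk to Tyms 1.13-fold and that of Rrm2 to Rrm1 1.07-fold. The ratio of Tipin to Timeless overlapped, at 0.918 ± 0.0275 in stretched cells and 0.848 ± 0.0485 in static cells (exact permutation p = 0.2). These pairs were chosen with the genes' values known, so the ratios are descriptions.

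Genes that work beside the fork were counted from related lists, of which only some genes are named here. Of 15 regulators of origin firing, 9 were called higher and 0 lower (median 0.14). Cdk2, the kinase that starts S phase, averaged 463 ± 4.92 CPM under stretch and 316 ± 9.28 CPM in static culture (1.47-fold); it shares 34 exonic bases with Pmel on the other strand. Topbp1, which helps to load Cdc45, rose 1.30-fold, and Ccna2, the S phase cyclin A, 1.33-fold; Ccna2 shares 510 exonic bases with Exosc9 on the other strand, itself called higher (0.19). Of 21 other fork factors, 15 were called higher and 3 lower (median 0.24). Top2a and Top1, which relieve the twist of DNA, rose 1.42-fold and 1.27-fold, and Atad5, which unloads PCNA, rose 1.39-fold. The 3 lower genes were Chtf8 (log2 fold change -0.33), a partner of an alternative clamp loader, and the small polymerase subunits Pole4 (-0.23) and Pold4 (-0.59, at 5.64 ± 0.378 CPM under stretch and 8.37 ± 0.709 CPM in static culture).

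Of 13 genes of chromatin assembly behind the fork, 8 were called higher and 0 lower (median 0.12). Nasp, a histone chaperone, averaged 125 ± 0.310 CPM under stretch and 81.4 ± 0.598 CPM in static culture, or 1.53-fold. Cdca7 rose 1.29-fold and Hells, the remodeller it recruits, 1.19-fold, a call lost with the GC-length offset (adjusted p = 0.0716). Of 14 other nucleotide enzymes, 7 were called higher and 1 lower (median 0.11). Shmt1, an enzyme of folate metabolism, rose 1.35-fold, and Dctd, which makes dUMP from dCMP, had a log2 fold change of 0.49. The lower gene was Tymp, which breaks down thymidine, at 2.33 ± 0.278 CPM under stretch and 3.82 ± 0.781 CPM in static culture. Tymp shares 856 exonic bases with Sco2 on the same strand, also called lower. On the other strand it shares 535 with Ncaph2, which was not called and averaged 213 CPM over the 6 libraries. The share called higher was above the background of 24.9% in each of the 5 lists, which were chosen with earlier results of these data known.

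**Figure D4:**
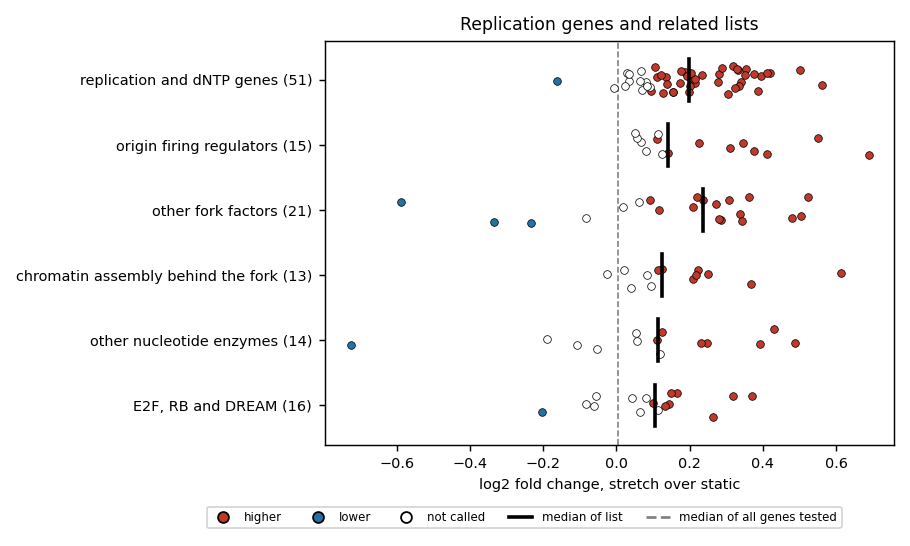
Log2 fold change, stretch over static, of the genes in the replication set and in the 5 related lists; each point is a gene and the line its list's median. Medians lie between 0.11 and 0.24, and the 5 genes called lower in the related lists are Chtf8, Pole4, Pold4, Tymp and Rbl2.

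Log2 fold changes were set beside the base composition of the transcripts. Across genes, Spearman's rho between the log2 fold change and transcript GC content was -0.37 over the 51 genes and -0.29 over the 12135 tested genes with an annotated transcript. The genes share the 6 libraries, so this is a description. The 25 genes with the lowest GC content had a median log2 fold change of 0.28 and 23 were called higher, whereas the 25 with the highest had 0.12 and 15. With an offset per library for GC content and length, 36 genes were called higher and 0 lower, of which 32 were among the 39 called without it. Over the 12135 genes in that fit, 2783 were called higher and 3035 lower. Orc4, Orc5, Mcm6, Pcna, Rpa3, Rrm1, Dck and E2f1 lost their calls, and Cdt1, Mcm5 (0.14, adjusted p = 0.0119), Pold2 and Fen1 gained one. Rpa3 had the lowest GC content of the set. The median of the ORC was 0.05 with the offset against 0.15 without, and that of the licensing factors was 0.17 against 0.07. The offset assumes that a trend with GC content between libraries is technical, and whether it is was not tested.

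**Figure D5:**
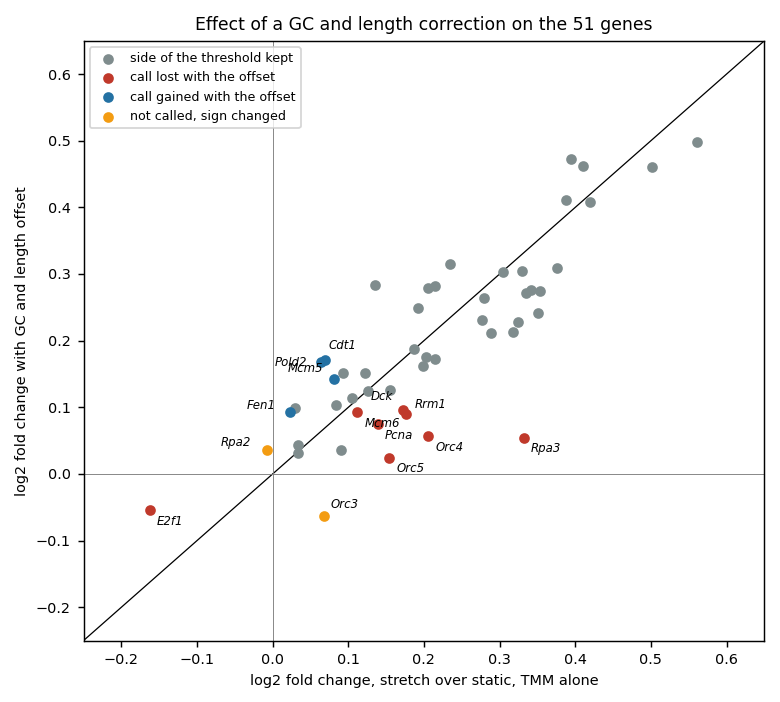
Log2 fold change of the 51 genes, stretch over static, with TMM alone (x axis) and with an offset for GC content and length (y axis); the line marks equal values. Prim1 and Dtymk keep large gains on both axes, while Rpa3 drops from 0.33 to 0.05 and E2f1 moves from -0.16 to -0.05.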

How the data were processed

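Expression was compared between 3 stretched and 3 static samples of B16F10luc2 cells, grouped by the condition in the labels. The authors' deposited table held estimated counts per gene as whole numbers. The submitters' processing notes name Salmon 1.4.0 with mm10 and GRCm38 and give no role for them. Its index, the summing of transcripts into genes, rounding and library strand are not given here. Salmon divides ambiguous reads among similar transcripts by a model, which adds uncertainty for overlapping genes and paralogs; the pseudogene Tyms-ps was in the table and not tested.

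Symbols and positions came from RefSeq GRCm38.p6 (14875 of 14883 Entrez Gene numbers matched). In edgeR 4.0.16 (R 4.3.3), filterByExpr with a minimum count of 10 kept 12377 genes and dropped 2506. TMM scaling was used (factors 0.966 to 1.02), and all genes entered 1 quasi-likelihood fit on group, with 4 residual degrees of freedom and a biological coefficient of variation of 3.60%. The tests were two-sided, and a gene was called below a Benjamini-Hochberg adjusted p of 0.05 over all genes tested. CPM values were computed with TMM library sizes, except the marker sums, which used total counts. The smallest exact permutation p for 3 against 3 is 0.1; the model borrows its estimate of spread across genes. GC content and length came from the longest GENCODE M21 transcript, known for 12135 tested genes (98%), all 51 members included.

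The members, their roles, the related lists and the alternatives were chosen with earlier results of these data known. All members are named; from each related list the 3 called genes of lowest p in each direction are named, except 1 that is not reported here, and full statistics are given for the 8 largest gains and every loss among members, with others by their means. Alternatives were RLE, upper-quartile and library-size-only scaling, no filter, at least 5 CPM in 3 libraries, the DESeq2 1.42.0 test, limma-voom (limma 3.58.1), glmTreat against 1.2-fold, a replicate block, an offset from natural splines (5 degrees of freedom) of GC content and of log2 length, both together, thinning to the smallest library, and leaving out each library. The procedure was tested on simulated data.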

Additional observations from a re-analysis of the deposited data

How the results depend on the processing

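Of the 39 genes called higher, 27 kept their call in all 17 alternatives other than the test against 1.2-fold, and 9 in all 18. That test called 9 members higher and 0 lower, against 679 higher and 913 lower of all 12377 genes. The members called higher numbered 33 to 41 with each library left out in turn (lower: 1 each time), and 35 in DESeq2. Over all genes, 2478 to 3075 of 12410 to 12693 were called higher with a library left out, and 2445 of 12573 in DESeq2. Scaling by library size alone moved the median of all genes to 0.06 and called 4117 genes higher and 2401 lower (63.2% of calls higher, against 49.0%). It called 47 members higher and 1 lower, and moved the member median to 0.26. By role, that scaling gave medians of 0.21 (origin recognition), 0.13 (licensing), 0.16 (Mcm2 to Mcm7), 0.35 (helicase activation), 0.26 (polymerases), 0.26 (clamp and loader), 0.29 (single-strand binding) and 0.39 (nucleotide supply). With upper-quartile scaling the member median was 0.21. The offset for GC content and length gave 36 higher and 0 lower, against 2783 and 3035 of all 12135 genes in that fit. Its medians were 0.17 (members), 0.046 (origin recognition), 0.17 (licensing), 0.15 (Mcm2 to Mcm7), 0.27 (helicase activation) and 0.054 (single-strand binding). Thinned counts gave 0.26 for helicase activation. With a library left out, medians ran from 0.26 to 0.30 for helicase activation, 0.19 to 0.23 for polymerases, 0.16 to 0.21 for the clamp and loader, and 0.20 to 0.25 for single-strand binding. The cause of these shifts was not tested.

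The sign turned in genes that were not called. Rpa2 was 0.0084 with upper-quartile scaling, 0.05 by library size alone, 0.036 with the offset, and -0.036 to 0.039 with each library left out (above 0 without stretch replicate 1 or static replicate 2). Orc3 was -0.063 with the offset. With each library left out, Cdc6 ran from -0.0040 (without stretch replicate 2) to 0.053 and Mcm7 from -0.0037 (without static replicate 3) to 0.052. Over the single genes, 809 of the refitted values kept their side of the threshold, 80 lost it, 19 gained it and 10 turned sign. In the test against 1.2-fold, the genes called higher fell to 4 of 15 (origin firing), 5 of 21 (other fork factors) and 2 of 13 (chromatin assembly). They fell to 3 of 14 among other nucleotide enzymes and 1 of 16 for E2F, RB and DREAM, against 679 of all 12377 genes. Hells lost its call with the offset (0.09, adjusted p = 0.0716).

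Deviations of same-numbered samples from their group means correlated at -0.0118, 0.00505 and -0.0770. Those of differently numbered samples ran from -0.0750 to 0.0951. With 3 samples per group, these values cannot show whether samples were paired. With the replicate number as a block, 36 members were called higher and 1 lower, and Orc5 (adjusted p = 0.0515), Mcm2 (0.0677) and Cdc45 (0.0535) lost their calls. Over all 12377 genes, the block gave 2924 higher and 3043 lower. With the block and the offset together, 34 were called higher and 0 lower, against 2615 and 2872 of all 12135 genes in that fit. Its medians were 0.17 (members), 0.046 (origin recognition), 0.17 (licensing), 0.15 (Mcm2 to Mcm7), 0.26 (helicase activation) and 0.052 (single-strand binding), with Orc3 at -0.063 and Rpa2 at 0.037.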
